A study of Rattus norvegicus with 49 samples.

Results

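The expression of 10 genes of hepatic stellate cells and of liver fibrosis was measured in rat liver after repeated furan exposure, namely Col1a1, Col1a2, Col3a1, Dcn, Timp1, Acta2, Des, Tgfb1, Pdgfra and Pdgfrb. They were found on the microarray through the RefSeq accession that each probe carries. The 10 genes had 11 probes, because Col1a1 had a brighter and a dimmer one, and were 10 of the 15154 genes to which a probe could be assigned. All 10 genes passed the requirement for a liver signal above background and were among the 9526 genes tested.

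Hepatic stellate cells lie between the sinusoid and the hepatocytes, store vitamin A and hold most of the capacity of the liver to make interstitial matrix. After injury they can turn into contractile myofibroblasts that secrete fibrillar collagens, with transforming growth factor beta and platelet-derived growth factor as the best known signals for this change. Furan is a hepatotoxic and hepatocarcinogenic contaminant of heated foods, and scarring around proliferating bile ducts is a known feature of its toxicity in rats at high doses.

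The animals were F344 rats of both sexes, from an inbred strain, that received furan in corn oil by gavage at 0.03 mg/kg, 0.12 mg/kg, 0.5 mg/kg or 2 mg/kg, 5 times weekly over 90 days. The controls of each sex received corn oil without furan. Dosing began when the animals were 7 to 8 weeks old. Each of the 10 groups held 5 rats, but for the males at 0.03 mg/kg 4 arrays were used, of which 3 entered the tests. RNA of whole liver was labelled with Cy5 and hybridized against Cy3-labelled RNA pooled from several rat tissues, so that the level of a gene in an animal is its log2 liver/reference ratio. Ratios were normalized within each array. A level below 0 therefore means a lower ratio than is typical for spots of like brightness on that array. Differences between groups are given as a log2 change with its standard error (SE), estimated with the slide that carried the array as a block. To be called, a gene needed an adjusted p of 0.05 or less over all 17128 tested probes together with a fold change of at least 1.5, a log2 change of 0.585. The dose groups of a sex were compared with the same 5 controls, so their results are not independent of each other, and the p-values measure the spread between individual rats.

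The arrays came from 8 slides. On slides 5 and 6, which carried 10 arrays and no controls, 37.9% to 46.0% of the liver spots were above background, and on the other 38 arrays in the tests this share was 45.5% to 71.1%. The array of 1 male at 0.03 mg/kg, male 26, had 5.06% of its liver spots above background and was left out of the tests. Compared with the columns of the series matrix, 46 of the 49 scanner files were most like a column of their own group, but only 7 were most like the column of the same animal, so the animal numbers used here are those of the scanner files and may not be those of the matrix. The other 3 files were male 26, female 62 at 0.5 mg/kg and male 83 at 2 mg/kg. Males 84 and 87 at 2 mg/kg were each most like their own column. In all, 7 of the genes (Col1a1, Col1a2, Col3a1, Dcn, Timp1, Pdgfra and Pdgfrb) were above background on all 48 arrays tested, whereas Acta2 was on 36, Des on 33 and Tgfb1 on 30 of them. The liver was recognizable by its hepatocyte genes, whose mean level lay between 6.08 and 8.36 in the control males.

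The promoters of 6 of the 10 genes were found in the RefSeq table of the GRCr8 build. Those of Timp1, Col1a2 and Des are printed because these genes deviated together across animals (correlations given further on), and each run holds the 250 bases before the annotated start of the gene, 5′ to 3′ on its own strand, with matches to the searched motifs in capitals. Both strands were searched for TATAAA (a core promoter box, in 12.9% of 33465 promoters of this length), CCAAT (34%), GGGCGG (the core of a GC box, 30.5%), TGANTCA (an AP-1 site, 6.34%) and the CArG box of serum response factor (1.5%).
Timp1 (chrX:3771123-3771372, minus strand): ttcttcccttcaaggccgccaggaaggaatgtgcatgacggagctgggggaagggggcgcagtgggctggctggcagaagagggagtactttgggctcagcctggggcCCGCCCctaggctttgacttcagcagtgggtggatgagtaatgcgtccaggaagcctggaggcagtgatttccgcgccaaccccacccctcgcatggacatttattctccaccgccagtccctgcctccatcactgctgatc
Col1a2 (chr4:33518307-33518556, plus strand): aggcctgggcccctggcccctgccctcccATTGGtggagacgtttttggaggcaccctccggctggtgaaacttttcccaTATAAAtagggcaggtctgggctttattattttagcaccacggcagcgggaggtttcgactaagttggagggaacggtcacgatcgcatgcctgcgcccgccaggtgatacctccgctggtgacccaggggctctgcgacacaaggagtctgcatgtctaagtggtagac
Des (chr9:84299376-84299625, plus strand): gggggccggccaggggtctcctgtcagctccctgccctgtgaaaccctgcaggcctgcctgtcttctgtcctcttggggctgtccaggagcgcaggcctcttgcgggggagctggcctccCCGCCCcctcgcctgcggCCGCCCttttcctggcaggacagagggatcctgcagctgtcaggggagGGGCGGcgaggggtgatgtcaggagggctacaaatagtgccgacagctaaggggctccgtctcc
The Timp1 window held 1 GGGCGG on the opposite strand, 142 bases before the start. The Col1a2 window held a TATAAA 170 bases before the annotated start and a CCAAT on the opposite strand, and no GGGCGG. The Des window held 3 copies of GGGCGG, at 130, 112 and 64 bases before the start. No motif of the search was found in all 3 windows. Positions count from the annotated starts, which these data do not check. Where transcription begins before the annotated start, part of the window is transcript and not promoter.

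In males at 2 mg/kg, Timp1 and Col3a1 were higher than in the control males and were the 2 genes called of the 10, where 5.22% of all tested probes were called in either direction and 2.73% were called higher. Of the 10 genes, 8 had a positive log2 change, with a median of 0.37 and a range of -0.19 to 0.92. The median of the 10 genes was 0.16 without male 87 and 0.02 without males 84 and 87. Males 84 and 87 were picked after the data were seen. They had the highest Timp1, Col3a1, Col1a2 and Des ratios of the males at 2 mg/kg. Leaving them out was therefore bound to lower these changes, here and below, and shows only how far the changes rest on these animals. Over all tested probes the median log2 change was -0.02 and 46.3% were positive. In whole liver RNA, a change in the number of cells of a type and a change of RNA per cell cannot be told apart.

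**Figure D1:**
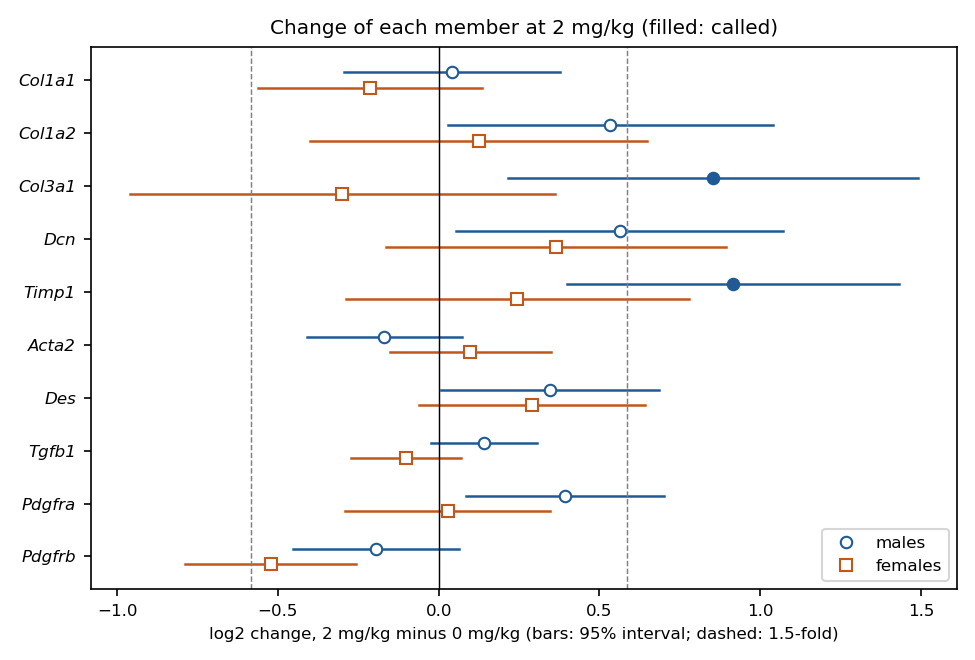
Log2 change at 2 mg/kg against 0 mg/kg (x axis) for each of the 10 genes (y axis), in males (circles) and females (squares), with the 95% interval as a bar, the 1.5-fold limits dashed and called genes filled. Timp1 and Col3a1 in males are the filled points, and the interval of Pdgfrb in females, -0.79 to -0.26, lies below 0 without the estimate reaching the 1.5-fold limit.

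Timp1 encodes an inhibitor of the metalloproteinases that degrade matrix. The log2 liver/reference ratio of Timp1 was -3.92, -3.89, -3.87, -3.69 and -3.67 in the 5 control males. It was -3.90, -3.57, -3.33, -2.15 and -1.52 in males 86, 83, 81, 84 and 87 at 2 mg/kg. Of the 5 treated males, 4 were above all controls, and male 86 was within the range of the controls. The log2 change was 0.92 ± 0.25 (SE), a 1.89-fold increase with an adjusted p of 0.00726 and a 95% interval of 0.40 to 1.43. The call depended on both high males, since the adjusted p was 0.0563 without male 84 and 0.0776 without male 87, and without both the log2 change was 0.11 with an adjusted p of 0.742. It was 0.60 with array weights (adjusted p = 0.0357).

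Col3a1 and Col1a2 encode chains of the fibrillar collagens that make up scar tissue. Col3a1 had log2 ratios of -3.10, -2.52, -2.31, -2.01 and -1.97 in control males and of -2.48, -2.43, -2.43, -1.06 and -0.03 in males 86, 81, 83, 84 and 87 at 2 mg/kg. Males 84 and 87 lay above all controls and the other 3 lay within the range of the controls. The log2 change of Col3a1 was 0.85 ± 0.31, a 1.80-fold increase with an adjusted p of 0.0444. Without males 84 and 87 it was 0.14 with an adjusted p of 0.801, and without single males of either group it ranged from 0.35 to 1.09. The call was lost without any 1 of control males 3, 4, 5 and 6 (adjusted p = 0.0729, 0.0563, 0.0781 and 0.175, respectively), without male 84 (0.0932) and without male 87 (0.364). With array weights the log2 change was 0.54 (adjusted p = 0.16). Without male 83, whose file was most like a column of another group, it was 1.01 (adjusted p = 0.0218), and that of Timp1 was 1.12 (adjusted p = 0.00116).

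Col1a2 had log2 ratios of -4.13 to -3.16 in control males and of -3.84, -3.61, -3.18, -2.65 and -1.95 in males 83, 86, 81, 84 and 87. Its order was much like that of Col3a1, with males 84 and 87 above all controls, but its log2 change of 0.53 ± 0.25 (95% interval 0.03 to 1.04) had an adjusted p of 0.117 and was not called. Without males 84 and 87 its log2 change was -0.06.

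Col1a1, the partner chain of Col1a2 in type I collagen, had log2 ratios of -1.94 to -1.40 in control males and of -2.30, -2.06, -1.87, -1.48 and -1.12 in males 81, 83, 86, 84 and 87. Male 87 was above all controls and males 81 and 83 were below all of them. Its log2 change was 0.04 ± 0.17 with a 95% interval of -0.29 to 0.38. The dimmer probe for Col1a1 gave 0.49 ± 0.26 (adjusted p = 0.177), with ratios of -2.88 in male 84 and -2.03 in male 87 against -4.02 to -3.46 in the controls. The 2 probes thus differed in size of change, and neither was called.

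Dcn encodes decorin, a small proteoglycan that binds collagen fibrils. Its log2 ratios were -3.00, -2.97, -2.85, -2.63 and -2.01 in control males and -2.91, -2.52, -2.12, -1.71 and -0.59 in males 86, 83, 84, 81 and 87. Males 81 and 87 were above all controls, and the log2 change of 0.56 ± 0.25 (adjusted p = 0.101) was not called. Male 81 was on slide 5. On slides 5 and 6 all 10 arrays had a Dcn ratio above every control of their sex, including low-dose arrays, and the part of the slide in the Dcn differences was not tested beyond the block in the fit.

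**Figure D2:**
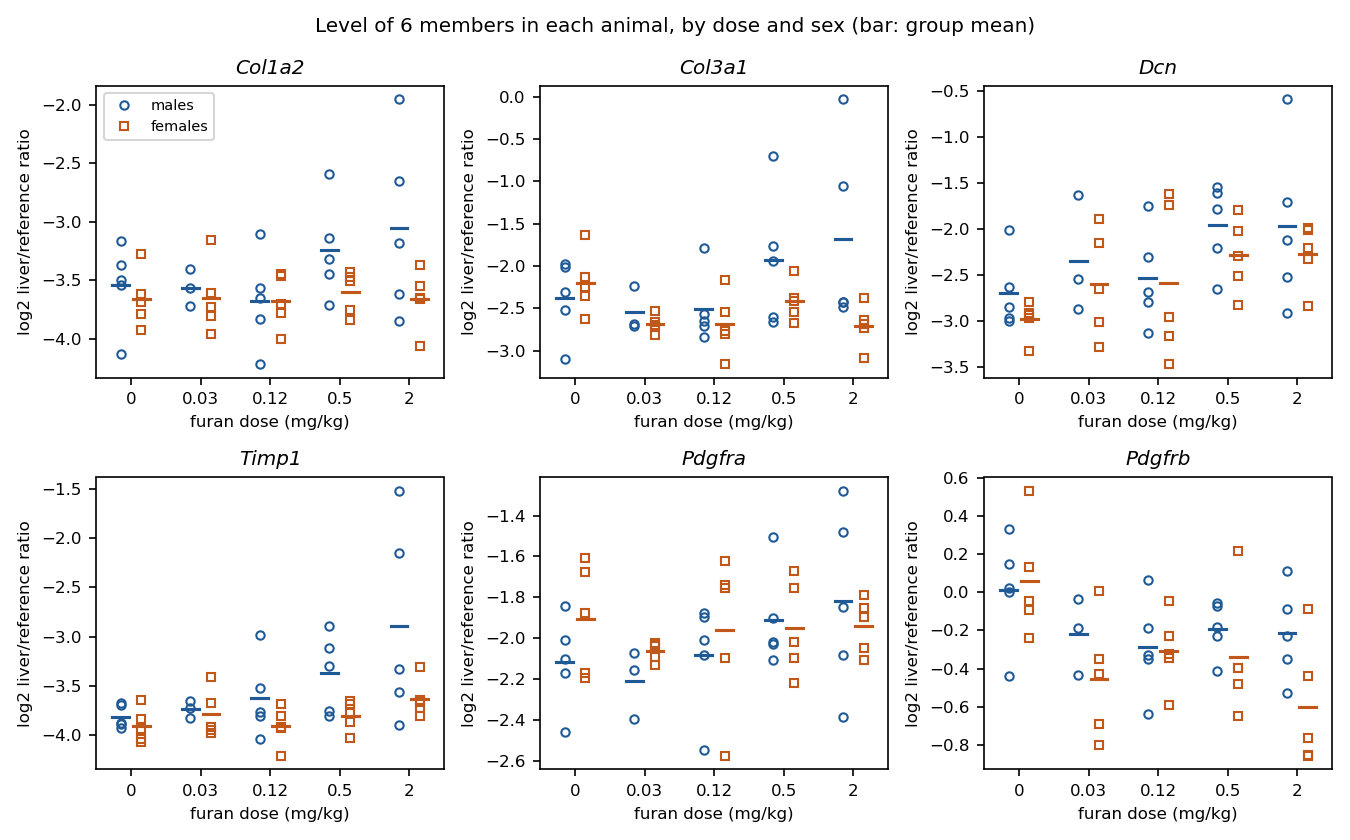
Log2 liver/reference ratio (y axis) of 6 of the genes in each animal by furan dose in mg/kg (x axis), for males (circles) and females (squares), with the unadjusted group mean as a bar and male 26 left out. In the males at 2 mg/kg, the 2 highest Timp1 points, at -2.15 and -1.52, stand above every male and female control, and the remaining points lie nearer to the controls.

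Des and Acta2 encode the cytoskeletal proteins desmin, a marker of rat stellate cells, and smooth muscle actin, a marker of myofibroblasts and of vessel walls. Des had log2 ratios of -0.34 to 0.24 in control males and of -0.06, -0.05, 0.13, 0.43 and 0.95 in males 81, 86, 83, 84 and 87. Males 84 and 87 were again above all controls. The log2 change of Des was 0.35 ± 0.17 (95% interval 0.01 to 0.68, adjusted p = 0.131), and it was not called. It ranged from 0.16 to 0.44 without single rats, was 0.05 without males 84 and 87, and was 1.02 with the scanner ratio, where it was called (adjusted p = 0.0451).

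Acta2 had log2 ratios of -2.21 to -1.90 in control males and of -2.38, -2.25, -2.06, -1.87 and -1.76 in males 84, 83, 86, 87 and 81. Male 84, which was high in Col3a1, was the lowest of these 10 animals in Acta2. The log2 change was -0.17 ± 0.12 (95% interval -0.41 to 0.07, adjusted p = 0.322), and its sign turned with the scaling, to 0.01 after median centring and to 0.02 without the slide block.

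Tgfb1 encodes the main profibrotic cytokine of the liver. Its log2 ratios in males were -2.09 to -1.07 at 0 mg/kg and -1.99, -1.81, -1.17, -0.97 and -0.63 in males 86, 84, 83, 81 and 87. These levels followed the slides closely. Over both sexes and all doses, they were -2.24 to -1.67 on slides 1 to 4, -1.16 to -0.75 on slides 5 and 6, and -1.36 to -0.63 on slides 7 and 8, and Tgfb1 was above background on 22 of 23, 0 of 10 and 8 of 15 of these arrays. With the slide as a block the log2 change in males was 0.14 ± 0.08 (95% interval -0.02 to 0.31, adjusted p = 0.213).

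**Figure D3:**
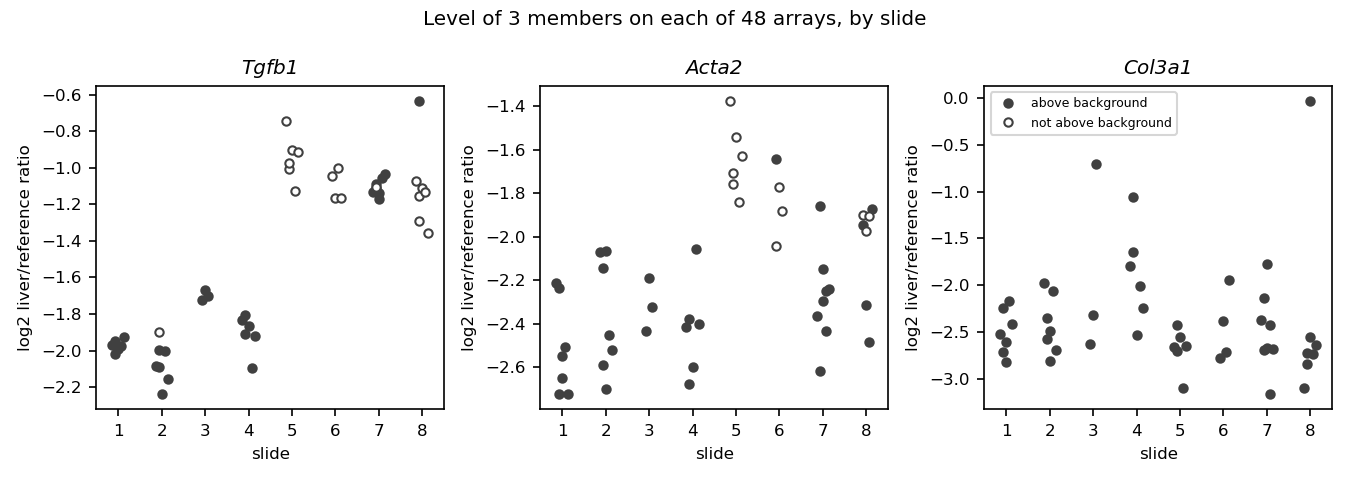
Log2 liver/reference ratio (y axis) of Tgfb1, Acta2 and Col3a1 on each of 48 arrays by slide (x axis), with arrays on which the gene was not above background as open points. Tgfb1 was between -2.24 and -1.67 on slides 1 to 4 and at or above -1.36 on slides 5 to 8. The 2 highest Col3a1 points, at -0.71 and -0.03, were on slides 3 and 8.

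Pdgfra and Pdgfrb encode the receptors for platelet-derived growth factor. Pdgfra had log2 ratios of -2.46, -2.17, -2.10, -2.01 and -1.84 in control males and of -2.39, -2.08, -1.85, -1.48 and -1.28 in males 83, 84, 81, 86 and 87. Males 86 and 87 were above all controls, and the log2 change of 0.39 ± 0.15 (95% interval 0.08 to 0.70) had an adjusted p of 0.0568. Pdgfrb, the receptor form that marks stellate cells and pericytes, had log2 ratios of -0.44 to 0.33 in control males and of -0.53 to 0.11 at 2 mg/kg. The log2 change of Pdgfrb was -0.19 ± 0.13 (95% interval -0.45 to 0.06, adjusted p = 0.278), and no male reached the level of the highest control.

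The males at 2 mg/kg thus differed among themselves. Male 87 was above all 5 controls in 9 of the 10 genes, Pdgfrb being the exception. Male 84 was above all controls in 4 genes (Col1a2, Col3a1, Timp1 and Des) and male 81 likewise in 4 (Dcn, Timp1, Acta2 and Tgfb1). On the array of male 81, on slide 5, Acta2 and Tgfb1 were not above background, and on slides 5 and 6 the level exceeded all controls of the sex on 10 of 10 arrays in Dcn, 10 in Acta2, 7 in Tgfb1 and 3 in Timp1, at any dose. Males 83 and 86 were above all controls in 1 gene each, Timp1 and Pdgfra, respectively. The share of all tested probes above all controls on each array is not given, so how unusual these counts are is not known.

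On 3 of the slides there was both a control male and a male at 2 mg/kg, so that the difference could be read within a slide. On slide 8, male 87 exceeded control male 6 by 3.07 in Col3a1, 2.35 in Timp1, 2.17 in Col1a2, 2.04 in Dcn and 1.22 in Des, all as log2 differences. On slide 4, male 84 exceeded control male 5 by 1.74 in Timp1, 0.95 in Col3a1, 0.71 in Col1a2 and 0.19 in Des, and its difference in Dcn was -0.11. On slide 2, the log2 difference of male 86 from control male 2 was -0.51 in Col3a1, -0.45 in Col1a2, -0.20 in Timp1, -0.04 in Des and 0.06 in Dcn. For Col3a1, Col1a2, Timp1 and Des the sign was therefore the same on slides 4 and 8 and the opposite on slide 2. Each difference rests on the control male of that slide alone. In Col3a1 and Col1a2, control male 6 on slide 8 had the lowest ratios of the control males (-3.10 and -4.13). Control male 2 on slide 2 had the highest (-1.97 and -3.16). On slide 8, control male 6 had 45.5% of its liver spots above background and male 87 had 56.1%. These were the lowest and the highest share among the arrays of that slide in the tests. The part of these controls and of the brightness of the arrays in the size and sign of the differences was not tested.

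At the lower doses in males, none of the 10 genes was called at 0.5, 0.12 or 0.03 mg/kg with limma, where 0.368%, 0.315% and 0% of all tested probes were called. At an unadjusted p under 0.05, 2, 1 and 0 of the 10 genes passed, against 11.3%, 6.56% and 4.13% of all probes. At 0.5 mg/kg the median log2 change of the 10 genes was 0.30, against -0.02 over all probes, and the 2 genes were Col3a1 (0.68 ± 0.32, adjusted p = 0.416) and Pdgfra (0.35 ± 0.15, adjusted p = 0.382). The Col3a1 log2 ratios in these males were -2.66, -2.60, -1.94, -1.77 and -0.71, with 3 of 5 above all controls. Male 70, the highest, was above all controls in 6 genes, namely Col1a2, Col3a1, Dcn, Timp1, Des and Pdgfra. For this count, too, the share of all tested probes is not given. Timp1 had log2 ratios of -3.81, -3.76, -3.29, -3.11 and -2.90 at this dose and a log2 change of 0.42 ± 0.26 (adjusted p = 0.545).

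At 0.12 mg/kg the changes of the 10 genes ranged from -0.26 to 0.24 on the log2 scale with a median of 0.01. At 0.03 mg/kg, they ranged from -0.20 to 0.11 in the 3 males tested, with a median of -0.01. With male 26 added, the largest log2 changes at 0.03 mg/kg were 0.82 ± 0.39 for Timp1 (adjusted p = 0.187) and 0.65 for Pdgfra (adjusted p = 0.118), and none was called. Tested over all 4 doses together with a moderated F, 18.8% of all probes and 1 of the 10 genes, Timp1 (adjusted p = 0.0407), passed in males, and Col3a1 had an adjusted p of 0.0594. No gene passed this test without any 1 of control males 3, 4, 5 and 6, of the 3 males at 0.03 mg/kg, of males 62 and 70 at 0.5 mg/kg and of males 84 and 87 at 2 mg/kg.

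The mean Timp1 level in males was -3.81 ± 0.12 (SD, n = 5) at 0 mg/kg, -3.73 ± 0.09 (n = 3) at 0.03 mg/kg, -3.62 ± 0.40 (n = 5) at 0.12 mg/kg, -3.37 ± 0.40 (n = 5) at 0.5 mg/kg and -2.89 ± 1.01 (n = 5) at 2 mg/kg. The means were in the order of the dose, but neighbouring groups differed by less than the SD of the higher dose group. For Col3a1 the means were -2.38 ± 0.46, -2.55 ± 0.27, -2.51 ± 0.42, -1.94 ± 0.79 and -1.69 ± 1.10 in the same order, and the SD was largest in the 2 groups with the highest means.

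In females at 2 mg/kg, 0 of the 10 genes was called by limma, where 1.45% of all tested probes were called, and 1 of the 10, Pdgfrb, had an unadjusted p under 0.05, against 24.3% of all probes. Of the 10 log2 changes, 6 were positive with a median of 0.06, against 0.00 over all probes. Pdgfrb had log2 ratios of -0.24, -0.09, -0.05, 0.13 and 0.53 in control females and of -0.86, -0.85, -0.77, -0.44 and -0.09 in females 85, 82, 92, 83 and 90 at 2 mg/kg. Of the 5 treated females, 4 were below all controls. These 4 were on slides 5, 7 and 8, and female 90 was on slide 2. Control female 4 was on slide 7 and the other controls were on slides 1 to 4. Over all arrays the median Pdgfrb level was -0.07 on slides 1 to 4, -0.38 on slides 5 and 6 and -0.43 on slides 7 and 8. The part of the slide in these levels was not tested beyond the block in the fit. The log2 change was -0.52 ± 0.13 with an adjusted p of 0.0165 and a 95% interval of -0.79 to -0.26, and with a fold change of 1.44 it was under the 1.5-fold limit. The adjusted p was 0.0588 without control female 2, 0.0564 without slides 5 and 6, and 0.0534 after median centring.

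On the 2 slides with both a control female and a female at 2 mg/kg, the log2 difference in Pdgfrb was -0.62 (slide 2) and -0.34 (slide 7). The log2 change of Pdgfrb was also negative at the lower doses, with -0.33 ± 0.13 at 0.5 mg/kg (adjusted p = 0.215), -0.29 ± 0.13 at 0.12 mg/kg (adjusted p = 0.549) and -0.34 ± 0.13 at 0.03 mg/kg (adjusted p = 0.691). All 4 values rest on the same controls. The mean level was 0.06 ± 0.30 (SD, n = 5) in control females and between -0.60 and -0.31 in the 4 dose groups. These means were not adjusted for the slide.

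Neither Col3a1 nor Timp1 was called in females. Col3a1 had log2 ratios of -2.63 to -1.64 in control females and of -3.09, -2.73, -2.69, -2.64 and -2.37 at 2 mg/kg, with 4 of 5 treated females below all controls. Over all arrays the median Col3a1 level was -2.35 on slides 1 to 4, and -2.66 both on slides 5 and 6 and on slides 7 and 8. With the slide as a block, the log2 change of Col3a1 was -0.30 ± 0.33 with a 95% interval of -0.96 to 0.36. Timp1 had log2 ratios of -4.07 to -3.64 in control females and of -3.81 to -3.31 at 2 mg/kg, and its log2 change was 0.24 ± 0.26 with an interval of -0.29 to 0.78. The log2 changes of the other genes were 0.37 ± 0.26 for Dcn, 0.29 ± 0.17 for Des, 0.12 ± 0.26 for Col1a2, 0.10 ± 0.12 for Acta2, 0.03 ± 0.16 for Pdgfra, -0.10 ± 0.08 for Tgfb1 and -0.21 ± 0.17 for Col1a1, with adjusted p between 0.306 and 0.931 and 95% intervals that all included 0. The sign for Pdgfra turned with the scaling, to -0.04 after median centring.

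At 0.5, 0.12 and 0.03 mg/kg in females, 0 of the 10 genes was called by limma, where 0.0292%, 0.0117% and 0.0175% of all tested probes were called, and at each of these doses 1 of the 10 had an unadjusted p under 0.05, against 15.1%, 8.42% and 6.48% of all probes. The medians of the 10 log2 changes were 0.09, 0.05 and 0.09, against -0.01, -0.03 and 0.01 over all probes. Over all 4 doses together, 3.1% of all probes and 0 of the 10 genes passed the F test in females, and Pdgfrb had an adjusted p of 0.0988.

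The effect of 2 mg/kg was compared between the sexes directly. None of the 10 genes was called for this difference by limma, where 1.14% of all tested probes were called, and 2 of the 10, Col3a1 and Tgfb1, had an unadjusted p under 0.05, against 19.1% of all probes. Of the 10 differences, 9 were positive, which means a log2 change that was higher, or less negative, in males than in females, with a median of 0.29 against 0.00 over all probes. For Col3a1 the difference was 1.15 ± 0.44 on the log2 scale (95% interval 0.27 to 2.03, adjusted p = 0.133). The difference was 0.67 ± 0.35 for Timp1 (adjusted p = 0.296) and 0.33 ± 0.18 for Pdgfrb (adjusted p = 0.306). Thus Timp1 and Pdgfrb each passed the adjusted p in 1 sex, but the difference between the sexes did not pass for either.

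Between control males and control females, 0 of the 10 genes was called by limma, where 6.59% of all tested probes were called, and 2 of the 10 had an unadjusted p under 0.05, against 34.7% of all probes. The first was Acta2, with log2 ratios of -2.21 to -1.90 in the control males and of -2.72, -2.68, -2.62, -2.59 and -2.43 in the control females. The groups did not overlap, but the share of all tested probes without overlap between the control sexes is not given. The log2 difference, males minus females, was 0.48 ± 0.12 with an adjusted p of 0.0023, and with a fold change of 1.40 it was under the limit. It was 0.15 (adjusted p = 0.351) from the liver channel alone and 0.23 (adjusted p = 0.0417) after median centring, and the adjusted p was 0.181 without the slide term, 0.137 with all 49 arrays, 0.128 with the scanner ratio and 0.411 with the series matrix. The other was Col1a1, with a difference of 0.34 and an adjusted p of 0.124.

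The deviations of the genes from the means of their group and slide were then compared among the 48 arrays. The mean deviation of Col1a1, Col1a2 and Col3a1 was set against that of each of the other 7 genes. It went with Timp1 (Pearson's r = 0.86, Spearman's rho = 0.86), Des (r = 0.80, rho = 0.77), Dcn (r = 0.77, rho = 0.70) and Pdgfra (r = 0.61, rho = 0.45). Each of these 4 values of r had a permutation p of 1e-05, the smallest that the permutations can give, and a Benjamini-Hochberg adjusted p of 1.75e-05 over the 7 relations. The deviations are what remains after groups and slides were fitted, so they are not independent between arrays. The permutation p-values of all 7 relations may therefore be too small. The adjusted p of rho was 2.33e-05 for the first 3 genes and 0.00315 for Pdgfra.

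The 2 arrays farthest from the median of the collagens were those of males 87 and 83 at 2 mg/kg. Without them r was 0.77 for Timp1, 0.73 for Des, 0.67 for Dcn and 0.45 for Pdgfra. In males and females separately, r was 0.88 (n = 23) and 0.84 (n = 25) for Timp1, 0.85 and 0.71 for Des, 0.83 and 0.62 for Dcn, and 0.73 and 0.38 for Pdgfra. The females, in which none of these genes was called, thus also showed the collagens and Timp1 deviating together.

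For Tgfb1 (r = 0.47, permutation p = 0.0017, adjusted p = 0.00238, rho = 0.17) and Pdgfrb (r = 0.44, permutation p = 0.00247, adjusted p = 0.00288, rho = 0.29), r fell to 0.15 and 0.19 without these 2 arrays, and the relations rest on them. The adjusted p of rho was 0.239 for Tgfb1 and 0.0614 for Pdgfrb. For Acta2, r was 0.21 (permutation p = 0.154, the same after adjustment) and rho was 0.22. Of the 48 arrays, Acta2 was above background on 36, Des on 33 and Tgfb1 on 30. The part of dim spots in the values of r was not tested.

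**Figure D4:**
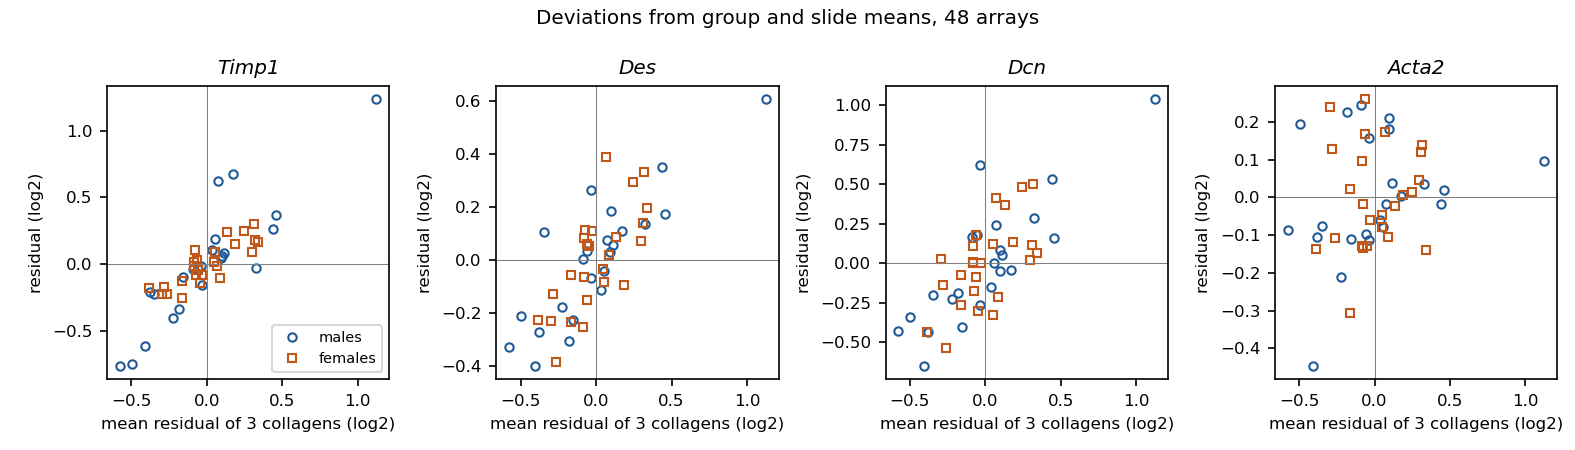
Deviation of Timp1, Des, Dcn and Acta2 (y axis, log2) against the mean deviation of Col1a1, Col1a2 and Col3a1 (x axis, log2) from the means of group and slide on 48 arrays, with males as circles and females as squares. The point at the far right is male 87 at 2 mg/kg, and r is 0.86, 0.80, 0.77 and 0.21 from left to right.

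Among all other named genes, those most like the mean deviation of the 3 collagens over the 48 arrays were Col6a2, a chain of the microfibrillar type VI collagen (r = 0.95), S100a6, a calcium-binding protein (r = 0.92), Tmsb10, a thymosin that binds actin monomers (r = 0.92), Anxa2, an annexin (r = 0.92), and Emp3, a membrane protein (r = 0.92). Without male 87 these values were 0.94, 0.89, 0.89, 0.88 and 0.87. Of the 5 genes, Anxa2 was called in males at 2 mg/kg (0.80 ± 0.21, adjusted p = 0.00548). The 15th gene in this order, Dynlt1, still had r = 0.89. The distribution of r over all genes is not given, so how unusual the values of Timp1, Des, Dcn and Pdgfra are is not known.

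Other genes of the same processes were counted in 8 lists, of which 57 genes were tested. In males at 2 mg/kg, 4 of the 57 were called higher and 0 lower, where 2.73% of all tested probes were called higher and 5.22% in either direction. Positive log2 changes numbered 37, against 46.3% of all probes, and the median was 0.10 (-0.02 over all probes). Without males 84 and 87, which were picked after the data were seen, the count called was 0. In females, 1 was called higher and 0 lower, where 1.45% of all tested probes were called in either direction. There, 23 were positive, against 50.9% of all probes, and the median was -0.04 (0.00 over all probes). At the 3 lower doses 0 of the 57 was called in either sex, where at most 0.368% of all tested probes were called.

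**Figure D5:**
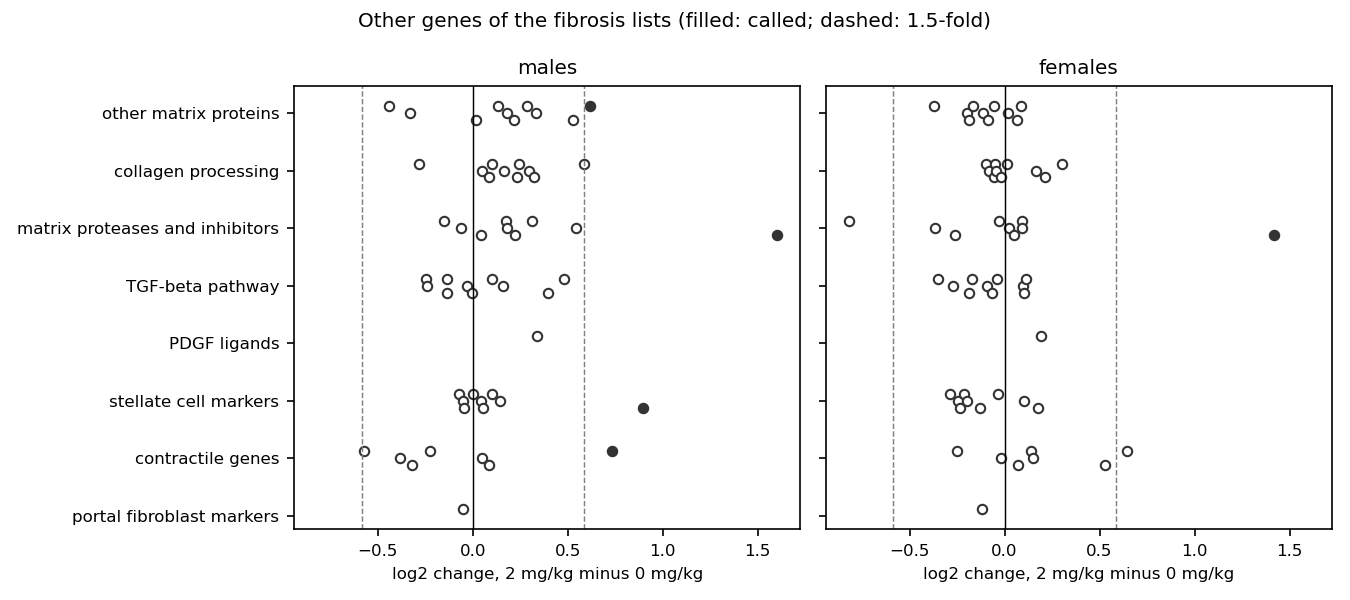
Log2 change at 2 mg/kg against 0 mg/kg (x axis) of 57 other genes in 8 lists (y axis), for males (left) and females (right), with called genes filled and the 1.5-fold limits dashed. The filled points in males are Col4a1 (0.62), A2m (1.60), Lrat (0.90) and Tpm1 (0.73), and the filled point in females is A2m (1.42).

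Of 10 other matrix proteins, 8 had a positive log2 change in males and 1 was called, Col4a1, a chain of basement membrane collagen (0.62 ± 0.15, adjusted p = 0.00201). Its log2 change fell under the 1.5-fold limit without control male 4 (0.57), male 84 (0.56) or male 87 (0.45), without the slide term (0.56) and with array weights (0.53), and was 0.33 as a mean over the probes of the gene. With all 49 arrays its adjusted p was 0.0764. Fn1, which encodes fibronectin and is also made by hepatocytes, had a log2 change of -0.44 ± 0.11 with an adjusted p of 0.00405, under the 1.5-fold limit. The median of this list was 0.20 in males and -0.10 in females.

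Of 10 genes for collagen processing, 9 were positive in males with a median of 0.20 and 0 was called. Plod2, a lysyl hydroxylase for collagen crosslinks, had a log2 change of 0.58 ± 0.18 (adjusted p = 0.0153), just under the limit. P4ha2, a subunit of prolyl hydroxylase, had -0.28 ± 0.09 (adjusted p = 0.0161). In females the median of the list was -0.03.

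Of 9 proteases and inhibitors of the matrix, 1 was called, A2m, which encodes the plasma protease inhibitor alpha-2-macroglobulin and is an acute phase protein of rat liver. Its log2 change was 1.60 ± 0.32 in males (adjusted p = 0.000302) and 1.42 ± 0.33 in females (adjusted p = 0.0103). The adjusted p in males was 0.0523 without males 84 and 87, and in females it was 0.0588 without slides 5 and 6. Plat, the tissue plasminogen activator, had a log2 change of -0.82 ± 0.27 in females with an adjusted p of 0.0560. The median of the list was 0.18 in males and 0.02 in females.

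Of 10 genes of the pathway of transforming growth factor beta, 0 was called in either sex. In males 4 were positive with a median of -0.02, and in females 3 were positive with a median of -0.08. Ccn2, a matricellular target of the cytokine, had a log2 change of 0.48 ± 0.15 in males (adjusted p = 0.0141), and Tgfb3, a sister ligand of Tgfb1, had 0.39 ± 0.12 (adjusted p = 0.0109). The only ligand of platelet-derived growth factor that could be tested was Pdgfa, with 0.34 ± 0.14 in males (adjusted p = 0.0889).

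Of 9 other markers of stellate cells, 5 were positive in males with a median of 0.04, and 1 was called, Lrat, which esterifies retinol for storage (0.90 ± 0.29, adjusted p = 0.0211). The adjusted p of Lrat was between 0.0597 and 0.096 when control male 3, 4 or 6 or treated male 86 or 87 was left out. The log2 change was 0.27 (adjusted p = 0.786) without the slide term and 0.47 (adjusted p = 0.76) with the series matrix, and the adjusted p was 0.0552 with the slide as a random block, 0.127 with all 49 arrays and 0.0758 with the scanner ratio. In females the median was -0.20 and Lhx2, a transcription factor of quiescent stellate cells, had -0.24 ± 0.10 (adjusted p = 0.117). Of 7 contractile genes, 3 were positive in males with a median of -0.22, and Tpm1, a tropomyosin, was called (0.73 ± 0.14, adjusted p = 0.000227), and its log2 change was under the limit without male 87 (0.49), with array weights (0.55) and as a mean over its probes (0.51). Cald1, caldesmon, had -0.22 ± 0.08 (adjusted p = 0.0487). The 1 tested gene for portal fibroblasts, Entpd2, had -0.12 ± 0.11 in females (adjusted p = 0.528).

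Markers of other cells were read as well, and their relation to the matrix genes was not tested. Of 3 tested markers of bile duct cells, Epcam (0.92 ± 0.16, adjusted p = 5.7e-05) and Krt19 (0.76 ± 0.23, adjusted p = 0.0141) were called higher in males at 2 mg/kg, where 2.73% of all tested probes were. Krt7 had a log2 change of 0.02, and Krt19 was above background on 32 of the 48 arrays. Epcam was also called in females (0.60, adjusted p = 0.0255), in which Col3a1 and Timp1 were not. The mean level of the 3 markers was -1.79 to -0.97 in control males, -1.55 to -0.68 in males at 0.03 mg/kg and -1.31 to -0.02 in males at 2 mg/kg. At 2 mg/kg, male 87 had the highest value, -0.02, and male 84 had -0.92.

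Msln, a marker of the mesothelium that covers the liver, had log2 ratios of -3.93 to -3.20 in control males and of -3.35 to -1.41 at 2 mg/kg (log2 change 0.82 ± 0.31, adjusted p = 0.0549). Its highest value, -1.41, was also that of male 87, and male 70 at 0.5 mg/kg had -2.43. The part of bile duct or mesothelial cells in the levels of Timp1 and the collagens was not tested.

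The mean level of the 5 hepatocyte markers was 5.98 to 7.76 in males at 2 mg/kg, and male 87, with 5.98, was close to control male 6 of the same slide, with 6.08. Of the 5 log2 changes in males, 0 were positive, against 46.3% of all probes. Their median was -0.41 and 0 were called, where 5.22% of all tested probes were called. By limma, 4 of the 5 had an unadjusted p under 0.05, against 35.7% of all probes. Alb had a log2 change of -0.51 ± 0.10 in males (adjusted p = 0.000408), under the 1.5-fold limit. None of the 7 macrophage, 4 endothelial and 2 lymphocyte markers tested was called in these males, against the same 5.22% of all tested probes. Of the 7 macrophage markers, 2 were positive and the median was -0.27. Clec4f, a marker of Kupffer cells, had -0.49 ± 0.11 (adjusted p = 0.000743) and was the only 1 of the 7 with an unadjusted p under 0.05.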

How the data were processed

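Liver RNA of 49 rats was hybridized to Agilent arrays that carry 2 colours, without dye swaps. Slides were scanned at 3 µm, per the file headers, and read with Agilent Feature Extraction 10.7.3.1 on a design annotated on rn4. The deposited scanner files hold a median pixel intensity per spot and local background and a log10 ratio of liver over reference. In the deposited value table of the series, the authors gave a log2 ratio that they had normalized in R, and 0 of its columns were left out. Its columns were used by group only, as an alternative.

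Intensities were background corrected (normexp, offset 50) and loess normalized within arrays with limma 3.58.1 (R 4.3.3, data.table version 1.17.8). Spots of a probe were averaged, the brightest probe of a gene was used, and 17128 of 30367 probes above background in liver on at least 4 arrays of 1 group were tested. Group means with slide as a fixed block were fitted over 48 arrays (lmFit, eBayes) and p-values adjusted by Benjamini-Hochberg. Male 26 was left out as dim, which was known from earlier results. Accessions named 18004 probes (59.3%). Scripts were tested on simulated data.

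Correlations used 100000 permutations (Python 3.11.15, NumPy 2.4.6, SciPy 1.17.1). The number of arrays limits the precision. The genes and lists were chosen with earlier results of these data known. All 10 genes are named, as are the genes of the 8 lists called at 2 mg/kg (up to 5 in each direction and sex) and the 2 with the smallest p per list, and the 5 genes most like the collagens. Alternatives covered the slide term, male 26, scaling, filter, threshold, probe choice, array weights, samples in the fit, leaving out each rat, and a block by animal number. After the data were seen, fits without slides 5 and 6 and without males 84 and 87 were added. Columns with comparisons of the study were not used.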

Additional observations from a re-analysis of the deposited data

Results flagged for a closer look

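In 90 combinations of gene and group, the highest or lowest animal was compared with the rest of its group by the size of its gap (Dixon's criterion), and 3 stood apart. Chance alone gives about 1 in 20. In control males, male 2 had the highest Col1a1 log2 ratio, -1.40, and the other 4 lay between -1.94 and -1.81. In males at 0.12 mg/kg, male 48 had the highest Col3a1 log2 ratio, -1.79, and the others lay between -2.84 and -2.57. In females at 2 mg/kg, female 90 had the lowest Tgfb1 log2 ratio, -2.16, and the others lay between -1.36 and -1.12. Female 90 was on slide 2 and the others were on slides 5, 7 and 8, and the part of the slide in this value was not tested.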

How the results depend on the processing

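In males at 2 mg/kg, where 2 of the 10 genes were called, the count was 1 without the slide term, with the series matrix ratios, without the filter, with array weights and without slides 5 and 6. It was 0 with all 49 arrays, with 1 sex in the fit and without males 84 and 87, and 4 after median centring. Leaving out single rats gave 0 to 3, with 0 without male 84 and 0 without male 87. The count of genes with an effect at any dose in males, 1, was 2 with the slide as a random block, 4 after median centring and 0 without the slide term, with 49 arrays, series matrix ratios, no filter, array weights, 1 sex in the fit or without males 84 and 87, and 0 to 3 without single rats. In females, 1 gene instead of 0 was called at 2 mg/kg without the slide term, with the scanner or series matrix ratios and by adjusted p alone (Pdgfrb each time), and 1 had an effect at any dose with array weights. Between control sexes, 1 instead of 0 was called after median centring (Pdgfra, -0.60) and by adjusted p alone (Acta2). At the lower doses and for the difference between the sexes, 0 was called in every alternative run. The causes were not tested.

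Signs turned in males at 2 mg/kg for Acta2 (-0.17; 0.0225 without the slide term, 0.0231 with the series matrix, 0.0144 after median centring), Col1a1 (0.04; -0.0095 with the series matrix, -0.0777 with array weights, -0.28 without males 84 and 87, -0.14 to 0.15 without single rats), Col1a2 (-0.0552) and Tgfb1 (-0.0041), both without males 84 and 87, as did the sex difference of Timp1 (-0.17). In females they turned for Tgfb1 (0.39 without the slide term, 0.40 with the series matrix), Entpd2 (0.31 and 0.34), Pdgfra (-0.0338 without the slide term, -0.0792 with 49 arrays, -0.0377 after median centring, -0.0409 to 0.10 without single rats) and Acta2 (-7e-04 with 49 arrays). Median centring moved the median log2 change of all probes in males from -0.02 to 0.09.

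All probes called in males at 2 mg/kg, 894, became 1427 with the scanner ratio, 505 with the series matrix, 4105 by adjusted p alone, 356 without males 84 and 87 and 552 to 1329 without single rats, and in females 249 became 118 with 49 arrays, 515 with the scanner ratio, 132 after median centring, 142 with 1 sex, 430 with array weights, 1053 by adjusted p alone, 151 without slides 5 and 6 and 99 to 353 without single rats. Of the 57 other genes, 4 called in males became 0 to 10 over the alternatives other than adjusted p alone (14). Animal numbers are shared only between the sexes and do not pair rats within a comparison. With the animal number as a replicate block, 2 of the 10 genes were called in males and 0 in females, and no call changed. The dim liver channel of slides 5 and 6 limits Tgfb1, Acta2 and Des, which were mostly not above background there.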
